A study of Mus musculus with 12 samples.

Results

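The genes described here are 71 mouse transcription factor genes of 14 families that pattern the embryo and, for most of them, the nervous system: Pax, Lhx, Dlx, Irx, Emx, Otx, Vsx, Gbx, Barhl, Pou3f, Pou4f, Nkx, Dmrt and the family of Six2 to Six6. They were chosen by symbol from the 21519 protein-coding genes on chromosomes 1 to 19 and X of GRCm38, and the families were proposed with earlier results of the same peak lists known. The readout was H3K27ac, acetylation of lysine 27 on histone H3, which marks active promoters and enhancers, measured by ChIP-seq. The cells were adipocyte progenitors from subcutaneous fat of Azin2-/- and wild-type mice. Azin2 encodes antizyme inhibitor 2, which acts on polyamine synthesis by releasing ornithine decarboxylase from antizyme. The nature of the deleted allele, the strain and the age of the mice were not stated in the sources at hand. Cells of both genotypes were grown for 1 week in DMEM containing 10% serum and 4.5 g/l glucose. They then received insulin (5 µg/ml), IBMX (0.5 mM), dexamethasone (1 µM) and rosiglitazone (1 µM) for 2 days, followed by 5 days of insulin at the same dose, with medium changed every 2 days. The libraries thus come from cells taken through a fat differentiation protocol, whatever their label.

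Each genotype had 3 H3K27ac libraries, replicates 1, 2 and 8 for Azin2-/- and replicates 1, 2 and 2b for wild-type. Values for 6 libraries are given below in that order, Azin2-/- first. Whether the libraries came from separate animals or cultures is not in the labels, nor how replicate 2b relates to replicate 2, so all spreads are between libraries and may be technical. The 6 input libraries of the series were not analysed here.

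Homeobox genes encode proteins with a homeodomain, a DNA-binding fold, and DMRT genes encode proteins with a zinc-finger-like DM domain. Most of these genes are used in narrow territories of the embryo, where they divide the neural tube, eye field, somites, limbs and organ buds into regions. In cells that do not use them, their promoters are classic targets of Polycomb complexes, which deposit methylation on the same lysine that H3K27ac occupies, so that a given histone tail carries one mark or the other.

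Each deposited list held 742335 to 1217494 peaks, and the 30000 peaks of smallest p in each library, called the main peaks here, were used for most values. They covered 28.9, 22.7, 21.1, 16.9, 21.9 and 28.0 Mb. Sequencing depth is unknown, since no read totals were given. Between 13843 and 54847 peaks of a library had a q of 0.05 or less, so outside Azin2-/- replicate 1 the main peaks include weaker ones. The Azin2 gene on chromosome 4 (128930233 to 128962456) had main peaks in its window in all 6 libraries, with scaled cover, the measure defined below, of 945, 893 and 1642 bp in Azin2-/- and 1978, 1219 and 2015 bp in wild-type. Azin2-/- replicate 8 lay above wild-type replicate 2, and since the deleted part is not given, a peak at this gene does not check the labels. Of 7 adipocyte marker genes, Plin1 and Cebpa had a main peak in all 6 libraries and Adipoq in none. Of 8 progenitor markers only Pdgfra had one in all 6, so the labelled cell type rests on few of its defining loci in these lists.

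A locus here is the span of a gene with 5 kb on each side, and it counts as held by a library when at least 1 bp of a main peak lies in it. Ranked by the median position of its best peak in the 6 lists, the strongest of the 71 loci were Irx3, Six5 and Emx2. Lhx9 and Pou3f4 were the weakest among genes with an entry in the RefSeq promoter table of GRCm38.p6. The 250 bases just before the annotated start of each of these 5 genes are printed because they mark the ends of that range. The sequences run 5′ to 3′ on the strand of the gene, and capitals mark CpG, the dinucleotide that is methylated in silent DNA and dense in CpG islands. Irx3 lies on the minus strand (chr8:91801655-91801904), Six5 on the plus strand (chr7:19094294-19094543), Emx2 on the plus strand (chr19:59458440-59458689), Lhx9 on the minus strand (chr1:138842445-138842694) and Pou3f4 on the plus strand (chrX:110814129-110814378).
Irx3: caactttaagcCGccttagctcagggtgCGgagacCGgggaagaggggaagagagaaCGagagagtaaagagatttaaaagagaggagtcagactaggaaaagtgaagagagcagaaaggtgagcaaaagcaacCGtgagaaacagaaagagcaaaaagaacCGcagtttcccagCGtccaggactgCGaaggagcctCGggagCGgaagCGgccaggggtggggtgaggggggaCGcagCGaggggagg
Six5: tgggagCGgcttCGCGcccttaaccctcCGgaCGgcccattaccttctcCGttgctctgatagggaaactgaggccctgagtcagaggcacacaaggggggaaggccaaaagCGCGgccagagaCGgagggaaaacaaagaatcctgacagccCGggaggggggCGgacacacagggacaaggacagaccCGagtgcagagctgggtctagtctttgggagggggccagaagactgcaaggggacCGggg
Emx2: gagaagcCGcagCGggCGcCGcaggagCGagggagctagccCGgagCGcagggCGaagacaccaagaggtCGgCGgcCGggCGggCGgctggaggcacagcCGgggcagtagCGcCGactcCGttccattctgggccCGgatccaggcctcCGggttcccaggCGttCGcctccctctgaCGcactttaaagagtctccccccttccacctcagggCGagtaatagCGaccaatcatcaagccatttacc
Lhx9: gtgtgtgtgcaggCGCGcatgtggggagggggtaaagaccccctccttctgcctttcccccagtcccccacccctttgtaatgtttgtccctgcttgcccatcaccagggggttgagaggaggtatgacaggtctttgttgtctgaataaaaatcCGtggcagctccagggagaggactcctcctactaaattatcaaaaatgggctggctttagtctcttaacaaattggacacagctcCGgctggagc
Pou3f4: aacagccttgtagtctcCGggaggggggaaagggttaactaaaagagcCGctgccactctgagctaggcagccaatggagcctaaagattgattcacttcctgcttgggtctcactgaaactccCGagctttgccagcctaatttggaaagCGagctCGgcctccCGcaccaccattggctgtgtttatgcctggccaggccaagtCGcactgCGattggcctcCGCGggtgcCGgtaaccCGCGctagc
Emx2 had 24 CpG in these 250 bases and a GC content of 67.2%. Irx3, Six5 and Pou3f4 had 13 each, with GC contents of 56.0, 62.8 and 58.0%. Lhx9 had 4, at 53.6%. Pou3f4, with no main peak in any library, thus had as many CpG as Irx3 and Six5.

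Most of the 71 loci carried a main peak in most libraries. A main peak lay at 29 loci in all 6 libraries, which was 40.8% of the genes against 31.7% of all 21519. Another 24 were held by 5 libraries, so that 53 (74.6%) were held by 5 or 6, against 44.4% of all genes. Only Otx2, a forebrain and eye field gene, and Pou3f4, a neural POU factor, were held by none. The windows are not alike in size, since the median gene span was 6569 bp for these genes and 17375 bp for all genes. With peaks of any strength, 69 of the 71 loci and 94.7% of all genes were held by all 6 libraries.

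Strong peaks were frequent at these loci but seldom shared by all libraries. In the 5000 strongest peaks of each library, 54 of the 71 loci (76.1%) were held by at least 1 library, against 46.0% of all genes. Held by all 6 at that strength was 1 locus, Irx3 (1.41%), against 1260 of all genes (5.86%).

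**Figure D1:**
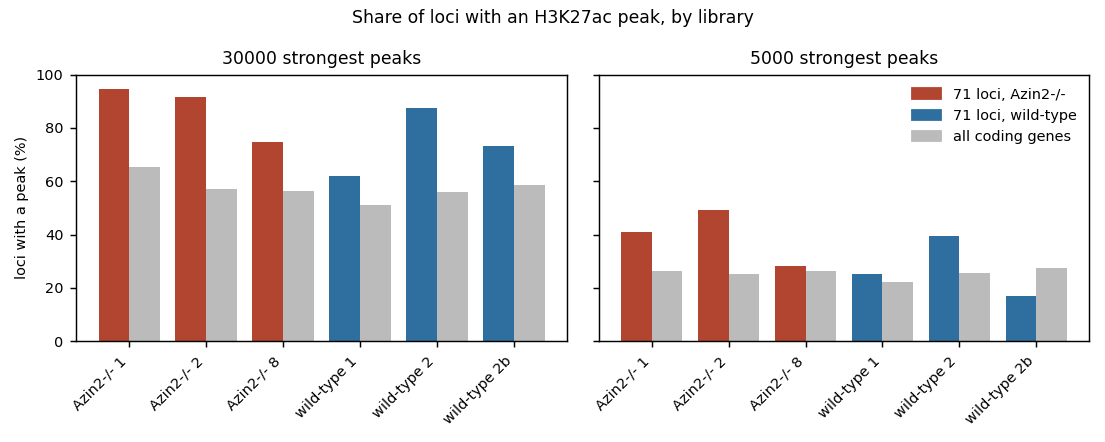
Percent of loci with a peak in each library, for the 71 genes and for all 21519 protein-coding genes, with the 30000 and the 5000 strongest peaks of each library. With 30000 peaks the 71 genes are above all genes in every library, from 62.0% (wild-type replicate 1) to 94.4% (Azin2-/- replicate 1), while with 5000 peaks wild-type replicate 2b is below.

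Libraries of the same genotype were further apart at these loci than over all genes. Main peaks held 67, 65 and 53 of the 71 loci in Azin2-/- and 44, 62 and 52 in wild-type. These counts are 94.4, 91.5, 74.6, 62.0, 87.3 and 73.2% of the 71 loci, against 65.3, 56.9, 56.5, 51.1, 55.9 and 58.5% of all genes. Azin2-/- replicates 1 and 2 and wild-type replicate 2 were the 3 highest libraries, so the order did not follow genotype. Among the 5000 strongest peaks the libraries were also spread, with 40.8, 49.3, 28.2, 25.4, 39.4 and 16.9% of the 71 loci held against 22.1 to 27.3% of all genes. At that strength wild-type replicate 2b held a smaller share of the 71 loci (16.9%) than of all genes (27.3%). The weakest main peak had a fold over local background, as the authors give it, of 3.19, 3.46, 3.26, 2.67, 3.6 and 3.15, and the median main peak was 870, 645, 629, 454, 623 and 791 bp wide. Wild-type replicate 1 had the lowest fold and the narrowest peaks. The part of these library values in the values of the 71 loci was not tested.

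Each of the 24 loci held by 5 libraries lacked a main peak in a single library. Wild-type replicate 1 alone lacked a main peak at 11 loci, among them Barhl2, Dlx1, Emx1, Lhx5, Lhx6, Nkx2-3, Pax7, Pou3f1, Six3 and Six4. Azin2-/- replicate 8 alone lacked one at 6 (Gbx2, Nkx2-5, Pou4f1, Six2, Six6 and Vsx1). Wild-type replicate 2b alone also lacked one at 6 (Irx4, Lhx1, Nkx1-2, Nkx2-1, Nkx6-1 and Pou4f2). Irx1 was the 1 locus that only Azin2-/- replicate 2 lacked.

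**Figure D2:**
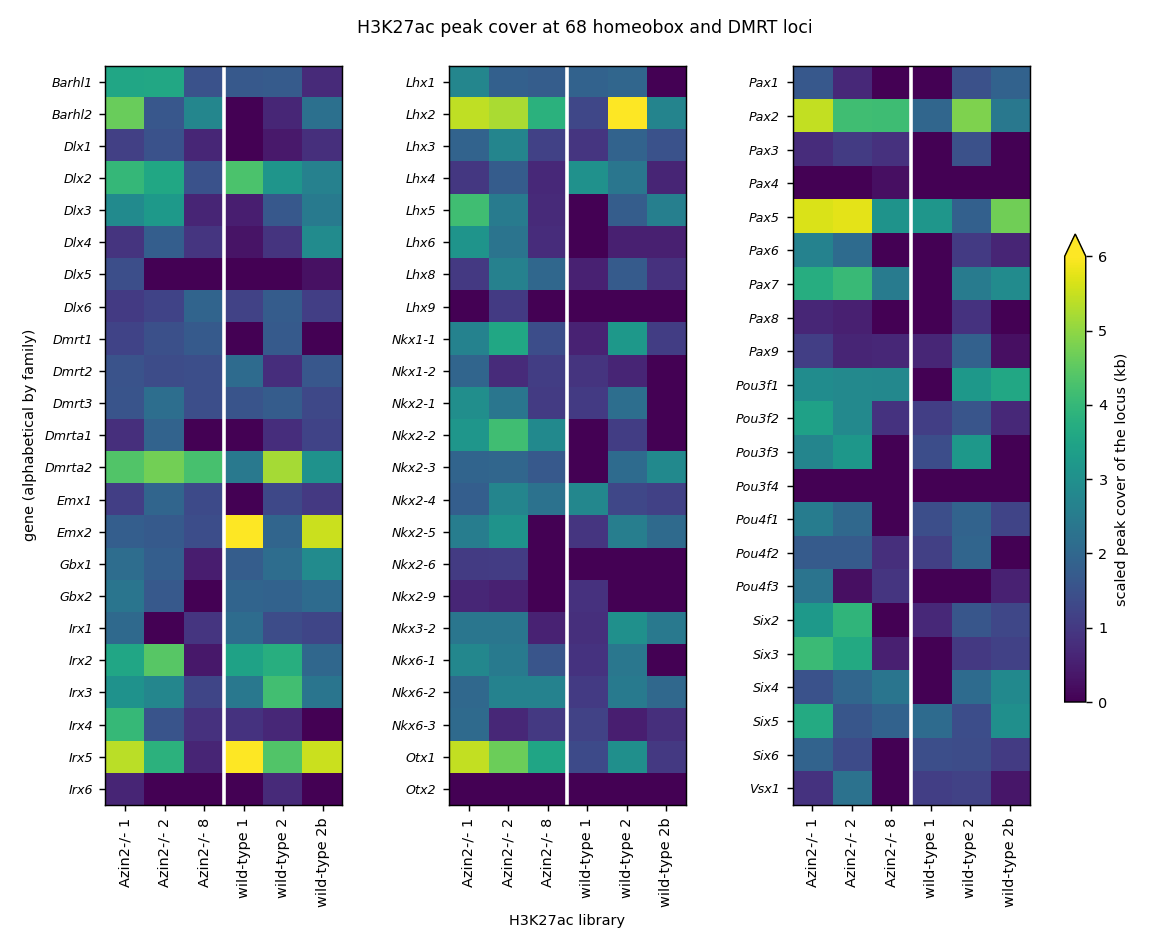
Scaled cover of main peaks at 68 of the 71 loci (rows, ordered by family) in the 6 libraries (columns), in kb on a linear colour scale that saturates at 6 kb. From left to right the median over the 71 loci is 2065, 1964, 919, 870, 1662 and 1092 bp, so columns of 1 genotype differ.

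Scaled cover is the number of bases of a locus under main peaks, scaled so that the total cover of the 6 libraries is equal. Its median over the 71 loci was 2065, 1964 and 919 bp in Azin2-/- and 870, 1662 and 1092 bp in wild-type, so wild-type replicate 2 lay above Azin2-/- replicate 8. Between 71.7 and 78.7% of a library's cover at these loci lay within gene spans. In bulk chromatin, fewer cells with the mark and less of the mark per cell cannot be told apart.

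The Iroquois genes Irx1 to Irx6 stand in 2 clusters and pattern the neural tube, limb and heart. Irx3 and Irx5 on chromosome 8 are known in fat tissue as targets of the enhancers in the obesity-linked Fto gene. Irx3 had 3070, 2764 and 1250 bp of scaled cover in Azin2-/- and 2404, 4186 and 2336 bp in wild-type, and the genotypes overlapped. Its strongest peak ranked 784, 88, 4850, 1280, 250 and 2071 in the 6 lists, with authors' folds of 18.3, 12.3, 4.76, 7.99, 13.5 and 12.5. Irx3 was the 1 locus of the 71 with a peak among the 5000 strongest of every library, Azin2-/- replicate 8 narrowly.
Irx5 had 5387, 3858 and 625 bp in Azin2-/- and 6228, 4366 and 5524 bp in wild-type. All libraries but Azin2-/- replicate 8 had 4 or 5 main peaks at Irx5, and that library had 1. Irx2 had 3540, 4446 and 398 bp in Azin2-/- and 3454, 3767 and 2013 bp in wild-type, again lowest in Azin2-/- replicate 8. The difference in mean log2 cover between genotypes (Azin2-/- minus wild-type) was -0.31 for Irx3, -0.92 for Irx5 and -0.41 for Irx2, and its sign for Irx3 and Irx2 turned without Azin2-/- replicate 8. Irx1 had 2050, 0 and 930 bp in Azin2-/- and 2129, 1405 and 1261 bp in wild-type. Irx6, the other gene of the chromosome 8 cluster, had main peaks only in Azin2-/- replicate 1 (618 bp) and wild-type replicate 2 (711 bp). Irx6 thus lay near 0 beside 2 cluster neighbours with strong peaks.

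Six2 to Six6 encode factors that act with EYA cofactors in eye, muscle and kidney development. Six5, which adjoins the myotonic dystrophy kinase gene Dmpk, had 3665, 1602 and 1886 bp in Azin2-/- and 2104, 1421 and 2988 bp in wild-type. Its strongest peak ranked 4221, 389, 10820, 835, 336 and 1507. The window of Six5 also holds Dmpk and Bhmg1, so its cover cannot be ascribed to Six5 alone.
Six4, of muscle and sensory ganglia, had 1505, 1980 and 2325 bp in Azin2-/- and 0, 2090 and 2845 bp in wild-type. Six2, which maintains kidney progenitors, had 3242, 3921 and 0 bp in Azin2-/- and 703, 1611 and 1278 bp in wild-type. The genotypes overlapped at each of these loci. All 6 members of the family were held by 5 or 6 libraries, 2 of them by all 6.

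EMX genes pattern the dorsal forebrain, and Emx2 also the urogenital system. Emx2 was the 1 locus of the 62 with enough cover to compare at which every Azin2-/- library lay below every wild-type library. Its scaled cover was 1789, 1698 and 1419 bp in Azin2-/- (1635 ± 192, SD, n = 3) and 6535, 1964 and 5511 bp in wild-type (4670 ± 2399, SD, n = 3). The log2 difference was -1.14. Wild-type replicate 2 was close to the Azin2-/- libraries, and the large gap came from wild-type replicates 1 and 2b.
A main peak covered the annotated Emx2 start in every library but wild-type replicate 2, where the start lay in the gap between 2 main peaks. It spanned chr19:59457978-59460202 in Azin2-/- replicate 1, chr19:59458177-59459831 in replicate 2 and chr19:59458471-59459760 in replicate 8, with no other main peak at the locus. Wild-type replicate 1 had 4 main peaks, of which that over the start spanned chr19:59457795-59460191. Wild-type replicate 2b had 2, that over the start (chr19:59457990-59460284) and one of 4339 bp further downstream (chr19:59460831-59465169), inside the gene span. Wild-type replicate 2 had chr19:59457710-59458637 before the start and the stronger chr19:59458908-59459832 after it. The strongest Emx2 peak ranked 1475, 5720 and 4753 in Azin2-/- and 173, 237 and 897 in wild-type, with authors' folds of 16.7, 5.53 and 4.32, and 13.6, 13.5 and 18.4. Ranks and folds belong to their own list and do not measure a change between libraries. Without scaling to equal cover, Emx2 had 2225, 1655 and 1290 bp in Azin2-/- and 4739, 1853 and 6634 bp in wild-type, and the genotypes then overlapped. Emx1 had 1105, 1964 and 1336 bp in Azin2-/- and 0, 1299 and 988 bp in wild-type, with overlap.

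**Figure D3:**
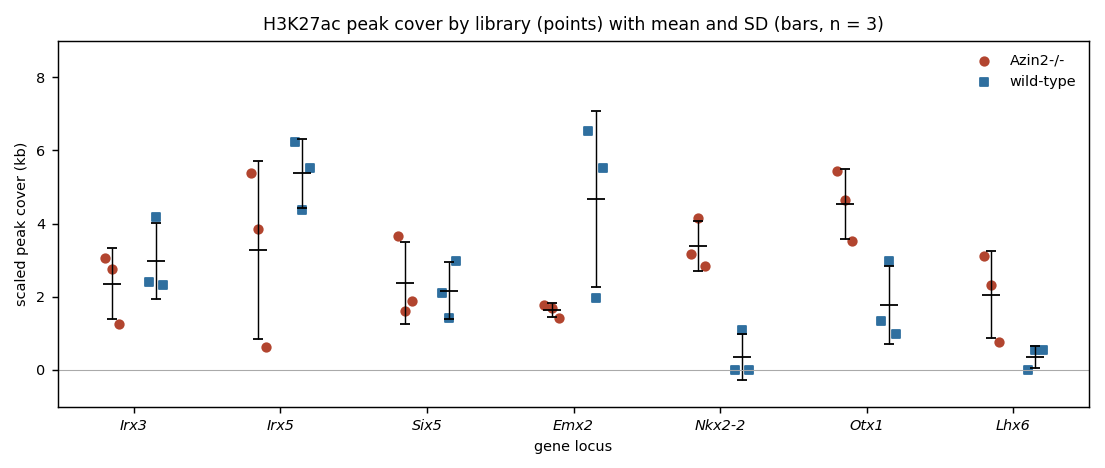
Scaled cover, on an axis in kb, at the loci named for the size of their difference and for strong peaks, 1 point per library, with the mean and SD of each genotype (n = 3). At Emx2 the Azin2-/- libraries sit between 1419 and 1789 bp and the wild-type libraries between 1964 and 6535 bp, while at Nkx2-2 the Azin2-/- libraries are the higher.

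Across genotypes, limma on log2 scaled cover called 0 of 11667 loci with a mean of at least 500 bp at an adjusted p of 0.05 in either direction (0.0%). At an unadjusted p of 0.05, 755 loci (6.47%) passed, 506 higher and 249 lower in Azin2-/-. Of the 71 genes, 62 had enough cover to enter this fit and 9 did not: Otx2, Pou3f4, Pax4, Lhx9, Irx6, Dlx5, Nkx2-9, Pax8 and Nkx2-6. None of the 62 passed, and since they were chosen with this contrast known, their values are given as a description without a test. The 3 Azin2-/- libraries were all above the 3 wild-type libraries at 4 of the 62 loci, among them Nkx2-2, Lhx6 and Otx1, where 784 of all loci (6.72%) were so. All lay below at 1 (Emx2), where 575 of all loci (4.93%) did.

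Nkx2-2, Lhx6 and Otx1 are all genes of the forebrain or ventral neural tube. Nkx2-2, a ventral neural tube and pancreatic islet factor, had 3158, 4159 and 2848 bp in Azin2-/- (3388 ± 685, SD, n = 3) and 0, 1082 and 0 bp in wild-type (361 ± 625, SD, n = 3). It had 3, 3 and 2 main peaks in Azin2-/- and 1 in wild-type, in replicate 2. That peak, chr2:147194286-147195306, overlapped a main peak of every Azin2-/- library. These were chr2:147193930-147195243 in replicate 1, chr2:147193657-147195561 in replicate 2 and chr2:147193926-147195884, the strongest at the locus, in replicate 8.
A main peak in every library of 1 genotype and none of the other was found at 1 of the 71 loci for Azin2-/-, against 149 of all genes (0.692%). For wild-type it was found at none of the 71, against 44 of all genes (0.204%).
Otx1, a forebrain and inner ear gene, had 5438, 4652 and 3532 bp in Azin2-/- (4541 ± 958, SD, n = 3) and 1346, 2985 and 990 bp in wild-type (1774 ± 1064, SD, n = 3). Its window also holds part of Ehbp1. Wild-type replicates 1 and 2b had 1 main peak each at Otx1, in replicate 1 at chr11:21993106-21994081. Every Azin2-/- library had a peak there and also one of 2667 to 2743 bp further on, in replicate 2 at chr11:22000689-22003431. Wild-type replicate 2 had shorter peaks at the latter place, of 492 and 1100 bp.
Lhx6, needed by cortical interneurons, had 3105, 2317 and 764 bp in Azin2-/- (2062 ± 1191, SD, n = 3) and 0, 536 and 533 bp in wild-type (357 ± 309, SD, n = 3). Azin2-/- replicate 8 was near the wild-type values at Lhx6, whose window also reaches Morn5. The windows of 16 of the 71 loci reach another coding gene, among them also those of Six4, Pax6 and Pax9. The log2 differences were 2.39 for Nkx2-2, 1.53 for Lhx6 and 1.23 for Otx1, all on the scale of cover plus 500 bp.

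Over the 62 loci, 47 (75.8%) had a positive log2 difference, against 54.6% of all loci in the fit. The median was 0.46, against 0.07 for all loci, and 0.38 over all 71 genes. A locus that passed the minimum through high cover in 1 genotype had to differ, so these counts describe the 62 loci and support nothing beyond them. Of the 62, 11 lay above 1 and 1 lay below -1. The median rested in part on single libraries. Without wild-type replicate 1 it was 0.12, against 0.05 for all loci, and without wild-type replicate 2 it was 0.74. Loci with all Azin2-/- libraries higher numbered 18 of 62 without Azin2-/- replicate 8, against 1636 of all 11760 loci in that fit (13.9%). Without wild-type replicate 2 they numbered 15 of 62, against 1643 of 11772 (14.0%). Fewer libraries have to be separate in these fits, and the part of this in the counts was not tested. The values of the libraries at the 71 loci, with medians of 870 bp in wild-type replicate 1 and 1662 bp in wild-type replicate 2, move with these medians.

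**Figure D4:**
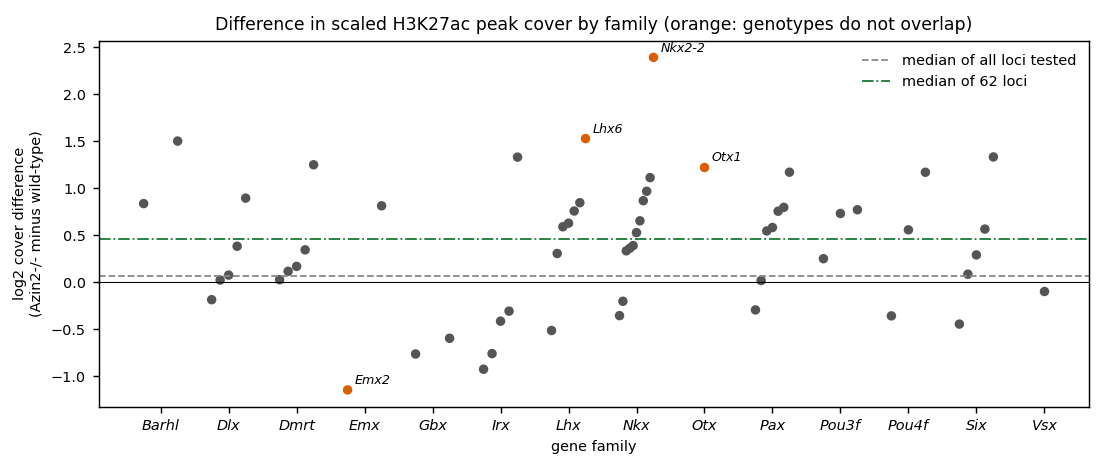
Difference in mean log2(scaled cover + 500 bp), Azin2-/- minus wild-type, for 59 of the 62 loci with a mean of at least 500 bp, by family. Orange points are loci whose genotypes do not overlap, and the lines mark the medians of the 62 loci (0.46) and of all loci fitted (0.07); points lie on both sides of 0.

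The families differed in their medians, with no test made. Medians below 0 were found for Irx (-0.41, 5 genes, 1 of them above 0), Gbx (-0.68, 2 genes) and Emx (-0.17, 1 gene on each side of 0). With the replicate number as a block, the difference rests on replicates 1 and 2 of each genotype. Irx2, whose value is the Irx median, and both Gbx genes then took the other sign. Irx2 and Gbx2 also did so without Azin2-/- replicate 8, a library that the block sets aside as well. Dlx (0.08, 5 genes), Dmrt (0.17, 5 genes) and the Six2 family (0.28, 6 genes) had small positive medians. Lhx (0.63, 7 genes), Nkx (0.54, 12 genes), Pax (0.58, 7 genes), Pou3f (0.73, 3 genes) and Pou4f (0.56, 3 genes) lay above 0, and Barhl (1.17, 2 genes) had both genes above 0. Otx1 (1.23) was the 1 Otx gene with enough cover. Of the 12 Nkx genes 10 were above 0.

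PAX genes encode paired-domain factors that specify neural tube, muscle, kidney and lymphocyte lineages. Pax2, a kidney and midbrain gene, had 5449, 4171 and 4147 bp in Azin2-/- and 1980, 4841 and 2403 bp in wild-type. Pax5, a B-cell and midbrain gene, had 5655, 5760 and 3071 bp in Azin2-/- and 3154, 1832 and 4689 bp in wild-type. The strongest Pax5 peak of Azin2-/- replicate 2 ranked 30 in its list. Both genes had a main peak in all 6 libraries and overlapping genotypes.
Pax7, the marker of muscle satellite cells, had 3747, 4060 and 2487 bp in Azin2-/- and 0, 2496 and 2886 bp in wild-type. Pax3, of neural crest and muscle precursors, had 756, 1036 and 856 bp in Azin2-/- and a main peak in wild-type replicate 2 alone (1497 bp). Pax6, the eye field gene, had 2663, 2094 and 0 bp in Azin2-/- and 0, 1022 and 621 bp in wild-type. Each of these 3 genes lacked a main peak in wild-type replicate 1. Pax9, a tooth and vertebral gene, had 1107, 619 and 671 bp in Azin2-/- and 647, 1852 and 250 bp in wild-type. Pax4, of pancreatic beta cells, had 244 bp in Azin2-/- replicate 8 and none elsewhere, and Pax8, of thyroid and kidney, was held by 3 libraries. Of the 9 Pax loci, 3 were held by all 6 libraries.

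LIM-homeodomain genes specify neuron types and limb and pituitary cells. Lhx2, of forebrain and hair follicle stem cells, had 5423, 5249 and 3823 bp in Azin2-/- and 1273, 7070 and 2715 bp in wild-type. The wild-type libraries at Lhx2 thus spanned the whole Azin2-/- range. Lhx8, of forebrain cholinergic neurons and also used as a marker of brown fat, had 986, 2646 and 1999 bp in Azin2-/- and 554, 1711 and 858 bp in wild-type. Lhx9, of gonad and limb, had 1028 bp in Azin2-/- replicate 2 and no main peak in the other 5 libraries. The family ran from Lhx2 among the most covered of the 71 loci to Lhx9 among the least.

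DLX genes pattern the jaw, limb and forebrain interneurons and stand in pairs. Dlx2 had 4005, 3578 and 1521 bp in Azin2-/- and 4290, 3129 and 2637 bp in wild-type, and overlapped. Dlx1 and Dlx2 lie 9.43 kb apart and their windows share bases, as do those of Dlx5 and Dlx6. Dlx6 had 1028, 1203 and 1943 bp in Azin2-/- and 1175, 1738 and 1116 bp in wild-type. Dlx5, its partner in bone and jaw, had 1437 bp in Azin2-/- replicate 1, 261 bp in wild-type replicate 2b and 0 in the other 4. Cover within this pair lay mostly on the Dlx6 side. Dlx3, of skin and bone, had 2876, 3243 and 624 bp in Azin2-/- and 494, 1662 and 2480 bp in wild-type. Dlx4 had 899, 1783 and 919 bp in Azin2-/- and 319, 892 and 2891 bp in wild-type. At both genes the wild-type spread was wider than the difference between the means.

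NKX genes have roles in the ventral neural tube and in heart, lung and gut. Nkx6-2, of oligodendrocytes, had 2029, 2660 and 2661 bp in Azin2-/- and 1012, 2447 and 2020 bp in wild-type, with part of Inpp5a in its window. Nkx6-1, of motor neurons and beta cells, had 2783, 2443 and 1572 bp in Azin2-/- and 878, 2373 and 0 bp in wild-type. Nkx3-2, a cartilage gene, had 2367, 2350 and 578 bp in Azin2-/- and 798, 3014 and 2436 bp in wild-type. In all 3, the genotypes overlapped.
Nkx2-5, of the early heart, had 2539, 3073 and 0 bp in Azin2-/- and 935, 2572 and 2073 bp in wild-type. Nkx2-6, of the pharyngeal arches and heart, had 1046 and 1072 bp in Azin2-/- replicates 1 and 2 and 0 in the other 4 libraries. Nkx2-5 was thus held by 5 libraries and Nkx2-6 by 2.

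Class III POU genes act in neural progenitors and Schwann cells, and class IV genes in sensory neurons. Pou3f1, a Schwann cell regulator, had 2922, 2835 and 2811 bp in Azin2-/- and 0, 3204 and 3606 bp in wild-type. The Azin2-/- libraries lay close together at Pou3f1 (2856 ± 58.5 bp, SD, n = 3), while its best peak in wild-type replicate 1 ranked 40195. Pou3f2, of cortical neurons, had 3442, 2816 and 887 bp in Azin2-/- and 1117, 1571 and 683 bp in wild-type. Pou4f1, of sensory ganglia, had 2526, 2018 and 0 bp in Azin2-/- and 1430, 1908 and 1222 bp in wild-type. None of the 3 class IV genes was held by all 6 libraries.

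DMRT genes act in sex determination, somites and spinal interneurons. Dmrta2, which patterns the cortical midline, had 4380, 4725 and 4246 bp in Azin2-/- and 2424, 5182 and 3054 bp in wild-type. Dmrt3, of spinal interneurons, had 1552, 2158 and 1443 bp in Azin2-/- and 1564, 1744 and 1296 bp in wild-type. Dmrt2, of the somite, had 1543, 1387 and 1447 bp in Azin2-/- and 2093, 782 and 1633 bp in wild-type. These 3 genes were held by all 6 libraries and overlapped. Dmrt1, the testis gene whose window shares bases with that of Dmrt3, had 1215, 1456 and 1706 bp in Azin2-/- and main peaks in wild-type in replicate 2 alone (1704 bp).

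The position of the peaks was read against annotated start sites for the 51 genes with an entry in the promoter table. Of the 253 strongest main peaks, 1 per locus and library, 48.2% had their summit within 1 kb of the start and 46.2% more than 1 kb downstream. Only 5.53% had it more than 1 kb upstream. The window reached 5 kb beyond the gene span on each side, so downstream of the start it also took in the gene itself. More downstream than upstream places were thus open to a summit, and the same shares were not counted over all genes. At Irx3 the summit lay 479, 309, 504, 492, 1837 and 462 bp past the start. At Emx2 it lay 493, 785, 842, 509, 724 and 785 bp past it, and at Six5 190 to 389 bp past it. Among these 3 genes, a summit over 1 kb from the start was seen in wild-type replicate 2 at Irx3 alone.

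Cover around the start reached further into these genes than into genes at large. Near the start, the most covered 250-bp bin was covered at 72.5, 62.8, 33.3, 31.4, 51.0 and 39.2% of the 51 genes, against 46.3, 31.2, 29.3, 23.1, 28.4 and 35.2% of 17273 genes. At 2125 bp downstream the values were 35.3, 29.4, 13.7, 9.8, 17.6 and 15.7%, against 1.05 to 2.71%. This downstream cover was above that of all genes in each of the 6 libraries. At 1125 bp upstream it was 15.7, 5.88, 0.0, 5.88, 3.92 and 5.88%, against 1.96 to 4.83%, with Azin2-/- replicate 8 below all genes.

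**Figure D5:**
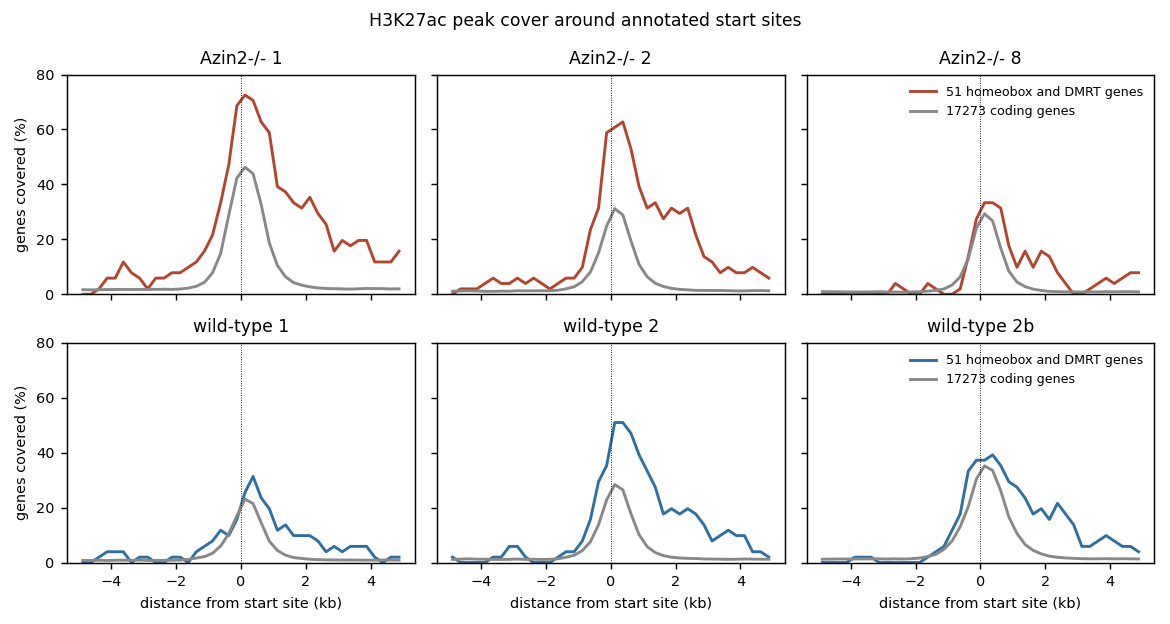
Percent of genes covered by main peaks in bins of 250 bp against the distance in kb from the annotated start, 1 panel per library, for 51 of the 71 genes and for 17273 genes with an entry. In every panel the line of the 51 genes stays above that of all genes at 2125 bp downstream, at 9.8 to 35.3% against at most 2.71%.

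The promoter sequences of these genes were rich in CpG. Over windows of 250 bases before to 50 after the start, the median GC content was 63.7% for the 51 genes and 56.3% for 17273 genes. The median number of CpG was 18 (range 4 to 57) against 14, and the median ratio of observed to expected CpG 0.689 against 0.586. A ratio of at least 0.6 was found for 33 of 51 (64.7%) against 49.0%.

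A main peak over that 300-base window was present in 76.5, 64.7, 29.4, 25.5, 52.9 and 37.3% of the 51 genes, against 46.7, 31.5, 30.6, 24.0, 28.7 and 35.8% of all. Azin2-/- replicate 8 and wild-type replicates 1 and 2b were within a few points of the share for all genes. It was present in all 6 libraries at 5 of the 51 (9.8%): Dmrt3, Emx2, Irx3, Nkx6-2 and Six5. That share was 13.8% over all genes. It was in no library at 11 (21.6%), against 48.5%. Among promoters with a ratio of at least 0.6, the window was covered in all 6 libraries at 9.09% of these genes, against 26.3%, and in none at 15.2 against 16.4%. Above that CpG ratio, most of these promoters were thus covered in some libraries and not in others, which also holds for all genes.

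Short motifs were counted on both strands of the same 300-base windows, where a match describes letters and no binding. The CCAAT box letters CCAAT were in 47.1% of the 51 windows and 39.6% of all. The TATA letters TATAAA were in 3.92% (Lhx3 and Otx2) against 13.4%. The homeodomain core TAATTA was in 5.88% against 4.61%, and the GC box letters GGGCGG were in 64.7% against 46.9%.

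Other lists of developmental regulators were counted in the same way, each chosen with earlier results of these data known. Of 70 other homeobox genes, 30 (42.9%) were held by all 6 libraries. A positive difference was found at 49 of the 64 with enough cover, against 54.6% of all loci in the fit, with a median of 0.49. The genotypes did not overlap at 9 of the 64 with Azin2-/- higher and at 2 with Azin2-/- lower, against 6.72 and 4.93% of all loci. Among the largest positive differences was that at Hmx2 (1.65), of the inner ear, without overlap. The largest negative ones were at Prrx1 (-1.88) and Prrx2 (-1.11), factors of limb and connective tissue mesenchyme, and both overlapped. Prrx1 had 2209, 0 and 0 bp in Azin2-/- and 12224, 300 and 2839 bp in wild-type.
Of 25 neural bHLH and SOX genes, 8 (32.0%) were held by all 6 libraries, and all 20 with enough cover had a positive difference, with a median of 0.55. The largest were at Sox2 (1.84) and Sox21 (1.54), both of neural progenitors. Sox2 had 2489, 2733 and 1903 bp in Azin2-/- and 0, 0 and 1514 bp in wild-type, without overlap, whereas Sox21 overlapped.
Genes of the Polycomb group were held by all 6 libraries at 22 of 30 loci (73.3%), and LIM cofactors with EYA and DACH genes, which include partners of LIM factors, at 15 of 18 (83.3%). Their median differences were 0.07 and -0.15. The largest Polycomb difference was at Cbx8 (0.94), with 3869, 2825 and 3306 bp in Azin2-/- and 749, 1286 and 3025 bp in wild-type, which overlapped. Of the H3K27 demethylase and MLL genes, 5 of 6 were held by all 6, with a median of 0.15. No gene of any of these lists passed the adjusted threshold.

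Marker loci of other cell types were read beside these values. Of 10 neuron markers, Syt1 and Rbfox3 were held by all 6 libraries and Snap25 by none. Their summed scaled cover was 12.2 to 19.0 kb in Azin2-/- and 12.4 to 18.4 kb in wild-type. Schwann cell markers summed to 4.2 to 7.32 kb and 0.778 to 4.82 kb. Skeletal muscle markers summed to 2.69 to 4.03 kb and 0.857 to 2.38 kb, with none of 6 held by all libraries and Myog at 0. These sums did not overlap, but only 2 of the 6 (Ckm and Des) had enough cover to compare. All Azin2-/- libraries were higher at 1 of those 2, where 6.72% of all loci were so. Acta1 went the other way, with a main peak in wild-type replicate 2 alone (885 bp). Progenitor markers summed to 2.99 to 5.94 kb in Azin2-/- and 3.91 to 13.0 kb in wild-type. Progenitor markers differed in direction. Dcn had main peaks in wild-type replicates 1 and 2b alone (1779 and 2320 bp), and Col1a1 had 0, 541 and 0 bp in Azin2-/- and 3468, 1201 and 1039 bp in wild-type. Dlk1 had 2032, 2119 and 722 bp in Azin2-/- and 0, 1104 and 0 bp in wild-type. Of the 6 progenitor markers with enough cover, 2 had a positive log2 difference (Dlk1 at 1.45 and Cd34 at 0.13). Endothelial markers summed to 2.75 to 5.2 kb and 0.827 to 4.21 kb, and macrophage markers to 4.03 to 4.81 kb and 1.1 to 5.06 kb, with no marker of either held by all 6 libraries. Epithelial markers, of which Epcam and Cdh1 were held by all 6, summed to 2.37 to 3.64 kb and 2.6 to 3.23 kb. Adipocyte markers summed to 4.4 to 5.79 kb and 4.14 to 6.53 kb. The part of these marker loci in the values of the 71 genes was not tested.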

How the data were processed

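H3K27ac ChIP-seq of 3 Azin2-/- and 3 wild-type libraries was used. Each library had 1 peak list on GRCm38 (mm10), per the submitters' processing notes. The aligner, peak caller, control and duplicate handling were not given in the sources used here. The authors' deposited lists give each peak's score (10 times the -log10 p, cut to a whole number), its fold ratio over local background, its -log10 p-value and -log10 q-value, and its summit. These were used only to rank, filter or describe peaks within a list. Covered length moves with peak width as well as number, and it saturates where 1 wide peak fills a locus.

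The 71 genes, the comparison lists and the rule for naming genes were chosen with earlier results of these data known. Main peaks were the 30000 strongest by p. Covered length, for a gene span extended by 5 kb both ways, was brought to the same total in every library, and log2 was taken after adding 500 bp. Loci with a mean of at least 500 bp were fitted with limma 3.58.1 (R 4.3.3, eBayes with a mean trend, Benjamini-Hochberg adjustment at 0.05). The fit was first run on simulated data with noise of the same size at every locus. Spread differed between loci in the real data, so that run does not show how well the fit suits them. Named were loci whose genotypes do not overlap, the 12 most covered loci held by all 6 libraries, a list of genes known in fat, mesenchyme or neurons, and the largest differences of each comparison list. Dlx1, Emx1, Nkx2-6, Pax4, Pax7 and Pax8 were added after their values were seen. Some genes that the naming rule selects are not reported here. Gene spans come from RefSeq for 21519 genes. A promoter entry was matched for 51 of the 71 genes, and the others have no start-site values. Python 3.11.15 was used for the rest.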

Additional observations from a re-analysis of the deposited data

How the results depend on the processing

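No setting brought any of the 71 loci past the threshold. Over all loci, 22 passed higher and 4 lower with peaks of q of 0.01 or less, and 43 and 16 with windows reaching 250 bp from each summit. Member loci with all Azin2-/- libraries above wild-type numbered 9 of 58 fitted with 15000 peaks (7.16% of all loci) and 9 of 67 with 20 kb flanks (7.19%). They numbered 7 of 62 without scaling (7.16%) and 2 of 57 with summit windows (3.34%). With wild-type replicates 2 and 2b averaged they numbered 11 of 62 (13.0%), and 7 to 18 of 61 or 62 when a library was left out (9.92 to 14.0%). Loci with all below numbered 2 of 58 with 15000 peaks (6.59%), 3 of 57 at a q of 0.01 (7.05%) and 3 of 60 at 0.05 (6.57%). They numbered 0 of 67 with 20 kb flanks (4.14%), 0 of 62 without scaling (2.42%) and 2 of 57 with summit windows (5.92%). When a library was left out they numbered 1 to 4 of 61 or 62 (8.04 to 11.9%). Over all loci the split of higher and lower was 843 and 285 without scaling, against 784 and 575. Loci held in Azin2-/- only numbered 2 with 5000 peaks (177 of all genes), 0 with 60000 (95), 0 with all deposited peaks (2), 0 with 20 kb flanks (108) and 1 to 4 when a library was left out (233 to 510), 4 without wild-type replicate 2 (397). Loci held by all 6 libraries numbered 1 with 5000 peaks (1260 of all genes), 49 with 60000 (9172), 10 at a q of 0.01 (3703) and 69 with all deposited peaks (20382). The cause of these moves was not tested. The median of the 62 loci stayed above 0, at 0.12 to 0.74 when a library was left out. Of the 62, 38 took the other sign under at least 1 setting, while Emx2 kept its sign from -1.61 to -0.77, Otx1 from 0.55 to 1.59, Lhx6 from 0.57 to 2.46 and Nkx2-2 from 0.22 to 3.92. Replicate numbers 1 and 2 occur in both genotypes. With the replicate number as a block, 0 loci passed and the median of the 62 was 0.62. Replicates 8 and 2b each stand alone in a block, so that difference rests on replicates 1 and 2 of each genotype. Deviations of same-numbered libraries correlated at -0.04 and 0.12 over 11667 loci. Differently numbered ones gave -0.02 (Azin2-/- 1 with wild-type 2) and -0.05 (Azin2-/- 2 with wild-type 1). With 3 libraries per genotype, these values cannot settle whether the numbers pair the libraries. Unknown depth and weak lists limit what a locus with no main peak shows.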
